A study of Mus musculus with 20 samples.

Results

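The data describe 8 genes of the Sonic hedgehog pathway, *Shh*, *Ptch1*, *Smo*, *Sufu*, *Gli1*, *Gli2*, *Gli3* and *Hhip*, out of 22367 protein-coding genes in the mouse annotation of NCBIM37 (mm9). They were chosen by name for their place in the pathway, and each was read as its gene body with 5 kb on each side, called its window here. What was measured is 5-formylcytosine (5fC), an oxidised form of 5-methylcytosine, as peaks of a chemical pull-down followed by sequencing. The value of a gene in a library is the percent of its window that lies under peaks.

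All embryos were collected at E11.5 and were either wild-type (WT) or *Tdg* null. *Tdg* null embryos, from crosses of heterozygotes, were homozygous in every cell for an allele that lacks catalytic TDG sequence and holds a neomycin resistance cassette instead. No other allele or treatment is named for either group. For hindbrain there were 4 embryos of each genotype, 1 WT and 1 *Tdg* null from each of the litters A, O, Q and Z. Hindbrain values are given below in that order. Heart, liver and carcass came from 1 WT and 1 *Tdg* null embryo in each of 2 other litters, pair a and pair b, again in that order, so that these 3 tissues share embryos. The litter field of the labels and the replicate list of the study both name 2 litter pairs, while the names of these embryos share a prefix. Carcass is what was left of the embryo after dissection and holds many cell types. The *Tdg* null liver of pair b, which the study set aside for quality, entered no main value, and 19 of 20 libraries were used. The files hold no expression values, so the tissue labels were not checked against marker genes.

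Hedgehog signalling starts when a secreted ligand such as Shh binds the receptor Patched, which otherwise holds the membrane protein Smoothened inactive. Freed Smoothened acts in the primary cilium on the Gli transcription factors, which Sufu restrains, and Gli proteins then activate targets that include *Ptch1*, *Gli1* and *Hhip*, so that the pathway feeds back on itself. In the embryo it patterns the ventral neural tube, hindbrain included, and the limbs, gut and face. TET enzymes oxidise 5-methylcytosine stepwise to 5fC, and TDG, a DNA glycosylase, excises 5fC so that base excision repair can put back an unmodified cytosine.

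Peaks covered between 2.68% and 8.09% of the genome in the 9 *Tdg* null libraries and between 0.0349% and 0.939% in the 10 WT libraries. The number of reads behind a peak is unknown from these files. WT hindbrains of litters A and Z held 1563 peaks each on the assembled chromosomes, which spread evenly would place between 0.0124 and 0.169 peaks in a window of these genes, so 5fC could go undetected there at this depth. A window without a peak is therefore one with no call, not one shown to lack 5fC. The window of *Tdg* itself was covered between 0% and 4.20% in *Tdg* null hindbrain and 0% in all 4 WT hindbrains, and since peaks are not a measure of expression this does not check the deletion.

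The 8 windows together held 1045 peaks in the 9 *Tdg* null libraries and 106 in the 10 WT libraries. *Tdg* null hindbrain had 85, 83, 99 and 97 peaks over them, and WT hindbrain of the same litters had 1, 9, 17 and 1. For 7 of the 8 genes, all but *Shh*, every *Tdg* null hindbrain library lay above every WT hindbrain library in the percent of the window covered. The same separation held for 55.0% of all protein-coding genes. For each of the 7 the two-sided exact permutation test of 4 against 4 gave p = 0.0286, the smallest it allows, and an adjusted p of 0.0519 (Benjamini-Hochberg over all protein-coding genes), which misses 0.05. The median difference between genotypes was 7.32 percentage points over the 8 genes and 2.47 over all genes. Window length differed as well, with a median of 88.1 kb against 25.4 kb, and separation was more frequent in longer windows, from 34.8% of genes with windows under 25 kb to 90.5% of those between 100 and 300 kb. *Shh* and *Gli1* fall in the first of these classes and *Gli2*, *Gli3*, *Sufu* and *Hhip* in the last.

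**Figure D1:**
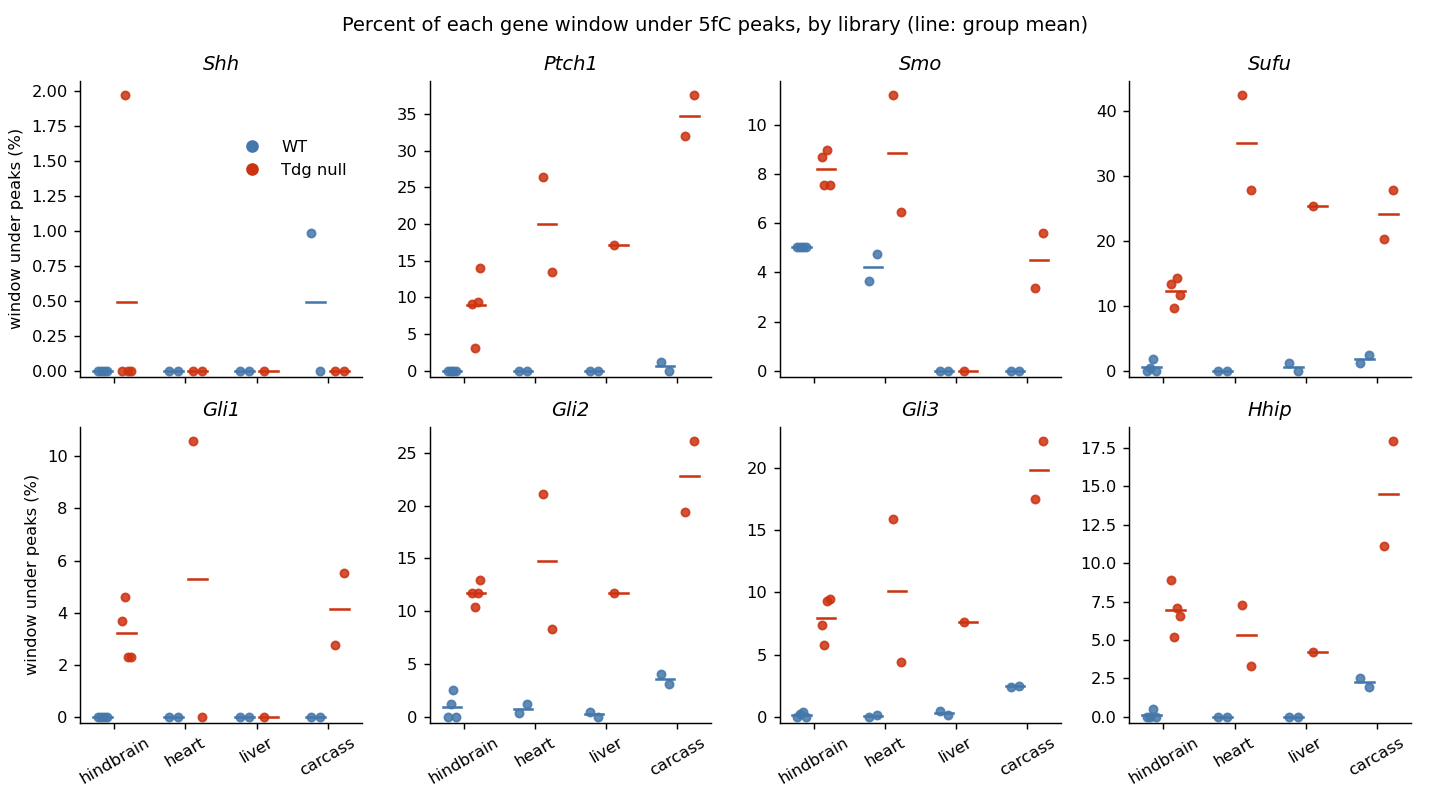
Percent of each gene window under 5fC peaks, with 1 point for each of the 19 libraries, a line at each group mean, tissues on the horizontal axis, WT in blue and *Tdg* null in red. For all genes but *Shh* the 4 *Tdg* null hindbrains lie above the 4 WT hindbrains, and *Smo* is the only gene whose WT hindbrains all lie above 0, at 5.05%.

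*Shh* (ENSMUSG00000002633.3, chr5:28783355-28793641, minus strand) encodes the ligand, and its window was almost free of peaks. Among the 19 libraries it held 1 peak in the *Tdg* null hindbrain of litter O, covering 1.97% of the window, and 1 in the WT carcass of pair a, covering 0.986%. All other libraries, *Tdg* null carcass, heart and liver included, had none. The genotypes therefore overlapped in hindbrain, where the means were 0.493% ± 0.986 (SD, n = 4) in *Tdg* null and 0% in WT (two-sided exact permutation test, p = 1). The peak in litter O lay downstream of the gene, at chr5:28782201-28782600. The gene body, which is 10.3 kb long and holds 2.77 CpG per 100 bp over its window, had no base under a peak in any *Tdg* null library.

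*Ptch1* (ENSMUSG00000021466.5, chr13:63610261-63674474, minus strand) encodes the receptor for the ligand and is itself a target of Gli proteins. In *Tdg* null hindbrain 9.16%, 3.10%, 9.43% and 14.0% of its window was covered, with a mean of 8.93% ± 4.48 (SD, n = 4), and WT hindbrain had 0% in all 4. Litter O was the lowest of the *Tdg* null hindbrains and still above all WT ones. Cover was higher in other *Tdg* null tissues. It was 31.9% and 37.6% in carcass, 26.4% and 13.5% in heart and 17.1% in liver. In WT embryos 1 of the 6 libraries of these tissues had any cover, the carcass of pair a at 1.21%. The highest *Tdg* null hindbrain, 14.0%, overlapped the lower of the hearts, 13.5%, so the tissues were not separated on this scale.

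The peaks of *Ptch1* in *Tdg* null hindbrain shared no base across all 4 libraries. The stretch under most libraries, chr13:63645501-63646000 in an intron, was under a peak in 3 of the 4 *Tdg* null hindbrains and in all 5 other *Tdg* null libraries. A further 3 intronic stretches, 2300 bp in all, lay under peaks of every *Tdg* null heart, liver and carcass and of no *Tdg* null hindbrain. This pattern is not particular to *Ptch1*, since *Gli2* had 5 such stretches, *Gli3* 4 and *Sufu* 2, and no count over the genome is given. Those of *Ptch1* are taken up here. The central 300 bases of the longest of them, which lies at chr13:63650101-63651100, are shown as an example of a stretch of the receptor gene with this pattern. Here and below, sequences are from NCBIM37, plus strand unless stated, with CpG dinucleotides in capitals.

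*Ptch1*, chr13:63650451-63650750: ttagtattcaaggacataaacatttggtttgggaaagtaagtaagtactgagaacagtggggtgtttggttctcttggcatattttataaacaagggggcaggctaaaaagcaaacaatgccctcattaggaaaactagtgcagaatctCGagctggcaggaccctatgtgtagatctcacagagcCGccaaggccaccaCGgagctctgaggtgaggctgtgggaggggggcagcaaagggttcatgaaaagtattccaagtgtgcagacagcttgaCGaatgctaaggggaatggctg

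No peak of any library touched the 60 bases around a Gli-type motif upstream of *Ptch1*. The motif searched was GACCACCCA on both strands. It occurs 303 bases upstream of the annotated start of *Ptch1*, in the CpG island that spans the start, and the nearest edge of a *Tdg* null peak was 6.70 kb away. Of all protein-coding genes, 0.814% hold the motif within 1 kb upstream of the start, and *Ptch1* is the only 1 of the 8 genes that does. The bases are shown on the strand of the gene with the motif in capitals, chr13:63674747-63674806, minus strand.

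*Ptch1* upstream: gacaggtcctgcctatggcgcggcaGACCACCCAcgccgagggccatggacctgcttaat

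*Smo* (ENSMUSG00000001761.6, chr6:29685694-29711365, plus strand) encodes the membrane protein that carries the signal into the cell, and it was the only one of the 8 genes with a peak in every WT hindbrain. Its window was covered at 5.05% in all 4 WT hindbrains and at 8.69%, 7.57%, 8.97% and 7.57% in the *Tdg* null hindbrains, with a mean of 8.20% ± 0.737 (SD, n = 4). The difference was 3.15 percentage points, the smallest of the 7 separated genes. WT hearts had 3.64% and 4.77% and *Tdg* null hearts 11.2% and 6.45%. *Tdg* null carcass had 3.36% and 5.61%, and WT carcass, WT liver and *Tdg* null liver had 0%.

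The WT cover of *Smo* came from 1 stretch. All 4 WT hindbrains had a single peak with the same bounds, chr6:29697501-29699300, 1800 bp of intron centred 12.7 kb after the start site, and both WT hearts had a peak within it. All 4 *Tdg* null hindbrains had between 1500 and 1800 bp of it under peaks. No carcass, no liver and neither *Tdg* null heart had a peak on any base of it. The 1300 bp common to the 10 libraries that have it, chr6:29697801-29699100, holds 2 CpG and is repetitive, with 69.6% of its bases in copies of GCTGT. The most shared stretches of the other 7 genes had at most 2.50% of their bases in this unit. GCTGT is the unit of the *Smo* stretch, so these low values say nothing about other repeats, which were not searched for. The central 300 bases are shown because they are the only sequence of the 8 genes called in WT hindbrain of every litter.

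*Smo*, chr6:29698301-29698600: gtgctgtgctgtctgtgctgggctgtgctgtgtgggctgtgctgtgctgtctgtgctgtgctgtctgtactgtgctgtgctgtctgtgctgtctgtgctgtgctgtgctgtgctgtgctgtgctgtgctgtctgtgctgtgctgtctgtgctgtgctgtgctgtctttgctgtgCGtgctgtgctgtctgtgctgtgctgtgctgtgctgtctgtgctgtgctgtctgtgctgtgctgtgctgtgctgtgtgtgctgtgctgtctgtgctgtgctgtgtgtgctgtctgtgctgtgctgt

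Stretches under peaks of all 4 WT hindbrains numbered 434 over the genome, and 0.858% of protein-coding genes had 1 in their window. The stretch of *Smo* ranked 12 among them by length. Of the 434, 280 were also under peaks in all 4 *Tdg* null hindbrains, and 87, that of *Smo* included, showed the same set of libraries, with at least 50% of the stretch under peaks in all *Tdg* null hindbrains and both WT hearts and none of it in other *Tdg* null tissues, WT liver or WT carcass. Outside this stretch *Tdg* null hindbrain had 3.69% ± 0.565 of the *Smo* window covered (SD, n = 4). WT hindbrain has 0% there by construction, since the stretch holds all of its cover of *Smo*. The exact permutation test there gave p = 0.0286, but it compares with values fixed at 0 beforehand and decides nothing. What the repeat contributes to the calls was not tested.

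*Sufu* (ENSMUSG00000025231.9, chr19:46471386-46563294, plus strand) encodes the cytoplasmic protein that holds Gli factors in check, and it had the highest mean cover of the 8 genes in *Tdg* null hindbrain, though *Gli2* was above it in litters O and Z and *Ptch1* in litter Z. *Tdg* null hindbrain had 13.4%, 9.71%, 14.2% and 11.7% of the window covered, with a mean of 12.3% ± 2.01 (SD, n = 4), against 0%, 0.393%, 1.77% and 0% in WT hindbrain. *Tdg* null hearts had 42.5% and 27.8%, *Tdg* null liver 25.3% and *Tdg* null carcasses 20.3% and 27.9%. All 4 *Tdg* null hindbrains lay below the 5 other *Tdg* null libraries, a pattern shared by 7.84% of protein-coding genes. WT hearts had 0% both, WT livers 1.28% and 0%, and WT carcasses 1.28% and 2.45%.

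The exons of *Sufu* were covered at 54.3% on average in *Tdg* null heart and at 46.4% in *Tdg* null liver, against 17.7% in carcass and 4.20% in hindbrain. Of 24 stretches under both *Tdg* null hearts and no other *Tdg* null library, 13 were in *Sufu*, spread from 10.4 to 90.8 kb after its start site, in a window with 11.8% of the bases of the 8. Stretches of this kind were not counted over the genome, and *Sufu* was not above all other *Tdg* null libraries in heart, since liver was higher on relative cover. The longest stretch under all *Tdg* null hearts, liver and carcasses and no *Tdg* null hindbrain, chr19:46557401-46559000, 1600 bp with 36 CpG, includes exonic bases and is centred 86.8 kb after the start site. Its central 300 bases are shown for that tissue difference, which 2 stretches of *Sufu*, 5 of *Gli2*, 4 of *Gli3* and 3 of *Ptch1* showed. No share over all genes is given for it.

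*Sufu*, not in hindbrain, chr19:46558051-46558350: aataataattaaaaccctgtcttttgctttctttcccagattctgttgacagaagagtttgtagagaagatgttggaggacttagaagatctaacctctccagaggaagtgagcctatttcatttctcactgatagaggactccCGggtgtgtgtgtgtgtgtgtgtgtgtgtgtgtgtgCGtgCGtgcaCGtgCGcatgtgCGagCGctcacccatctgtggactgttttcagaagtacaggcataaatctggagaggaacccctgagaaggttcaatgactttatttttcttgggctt

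**Figure D2:**
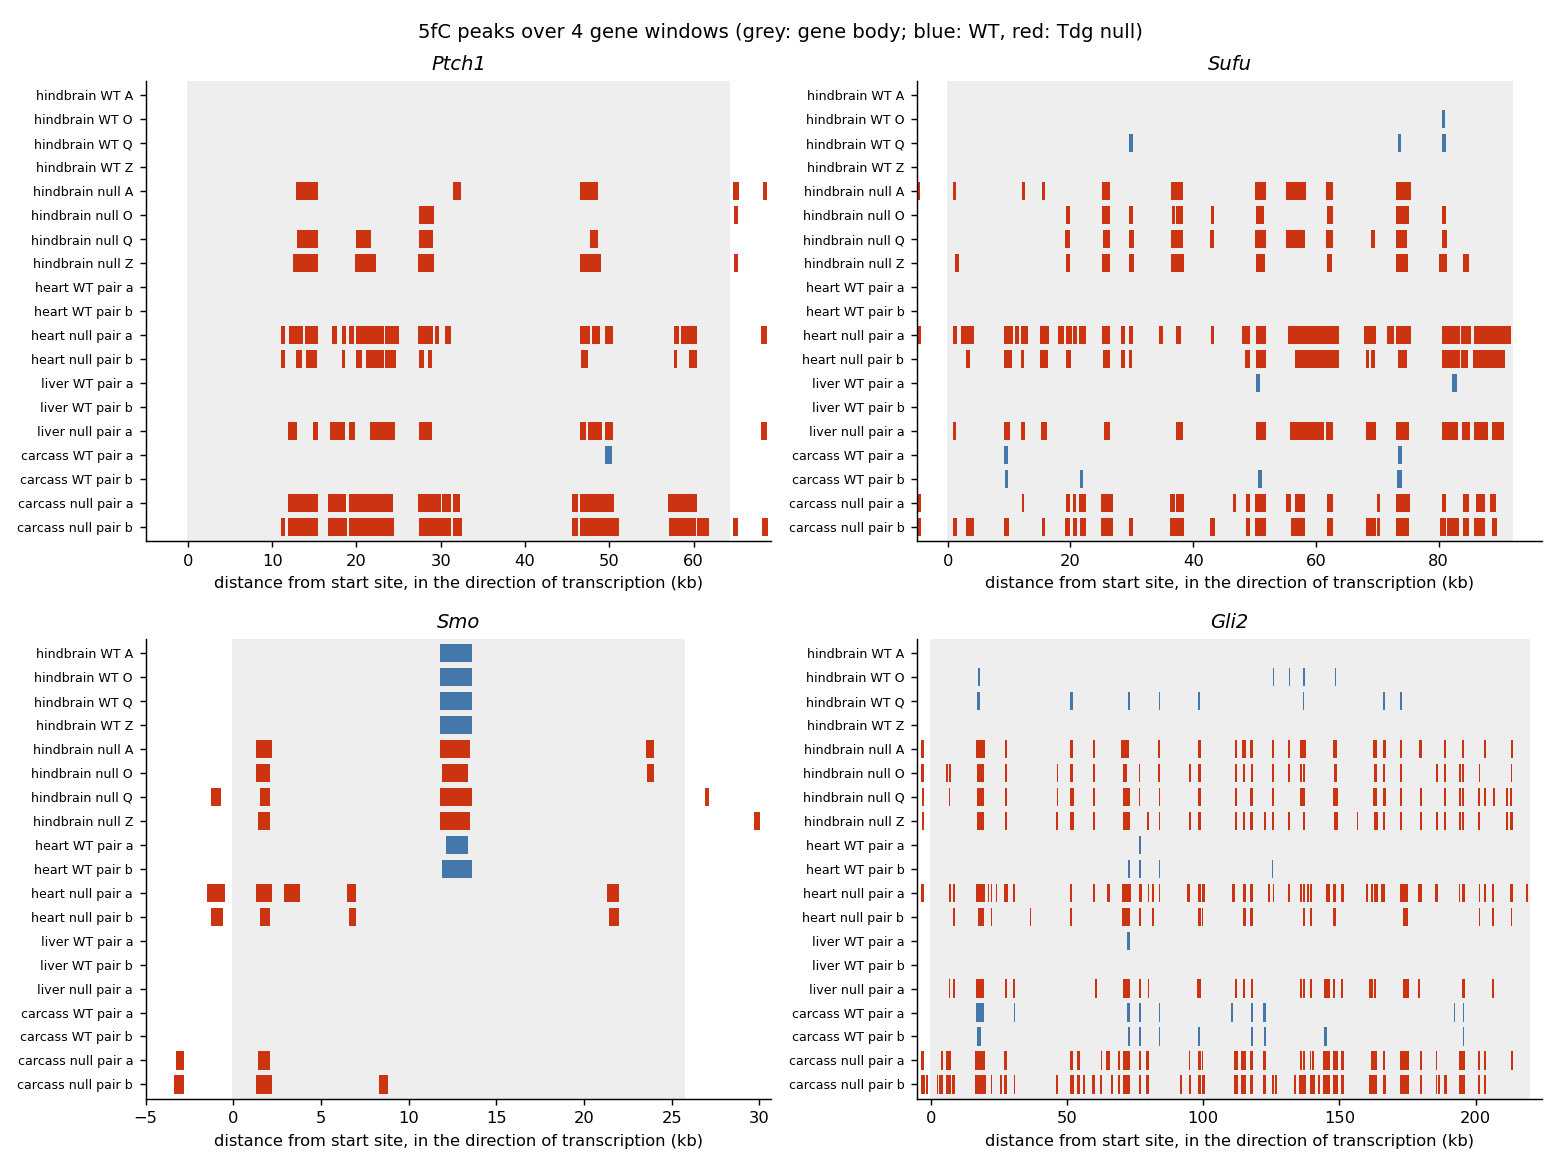
Peaks over the windows of *Ptch1*, *Sufu*, *Smo* and *Gli2* in the 19 libraries, by distance from the start site in kb along the direction of transcription, with the gene body in grey, WT in blue and *Tdg* null in red. *Smo* has 1 block shared by all hindbrains and both WT hearts, and *Sufu* has peaks 86.8 kb after its start site in every *Tdg* null heart, liver and carcass and in no *Tdg* null hindbrain.

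*Gli1* (ENSMUSG00000025407.5, chr10:126766945-126778645, minus strand) encodes the Gli activator that is also the usual readout of the pathway. *Tdg* null hindbrain had 1, 2, 1 and 1 peaks, which covered 3.69%, 4.61%, 2.30% and 2.30% of the window, a mean of 3.23% ± 1.13 (SD, n = 4). All 10 WT libraries had 0%. *Tdg* null carcasses had 2.76% and 5.53%, while the hearts differed, with 10.6% in pair a and 0% in pair b, and *Tdg* null liver had 0%. The tissues thus overlapped. Every *Tdg* null hindbrain had a peak over the same place, chr10:126769401-126769900, where 265 of 500 bases are exonic and 25 CpG stand in 63.4% GC. It was under peaks in 7 *Tdg* null libraries and no WT library. With peaks of at least 600 bp alone, *Gli1* was no longer separated in hindbrain. The central 300 bases are shown because this is the richest in CpG of the most shared stretches of the 8 genes.

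*Gli1*, chr10:126769501-126769800: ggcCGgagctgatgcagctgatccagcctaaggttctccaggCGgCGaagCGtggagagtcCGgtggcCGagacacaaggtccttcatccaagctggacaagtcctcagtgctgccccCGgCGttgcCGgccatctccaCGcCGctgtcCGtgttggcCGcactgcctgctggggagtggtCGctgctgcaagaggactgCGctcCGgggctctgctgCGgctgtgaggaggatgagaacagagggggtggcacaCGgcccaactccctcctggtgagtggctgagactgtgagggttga

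*Gli2* (ENSMUSG00000048402.8, chr1:120730709-120950196, minus strand) encodes the main Gli activator of the early response, and it held 24, 30, 29 and 32 peaks in *Tdg* null hindbrain. The percent covered was 11.7%, 10.4%, 11.8% and 12.9%, a mean of 11.7% ± 1.03 (SD, n = 4). WT hindbrain had 0%, 1.22%, 2.53% and 0%, with no peak in litters A and Z. *Tdg* null carcass had 19.4% and 26.1%, heart 21.1% and 8.32%, and liver 11.7%. Hindbrain lay within the range of the other *Tdg* null tissues. *Gli2* had cover in both WT carcasses, 4.01% and 3.09%, and in both WT hearts, 0.349% and 1.18%, and WT livers had 0.436% and 0%.

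Of 14 stretches in the 8 windows that lay under peaks of all 9 *Tdg* null libraries, 6 were in *Gli2*, 4 in *Sufu*, 2 in *Gli3* and 2 in *Hhip*, 12 of them intronic and 2 with exonic bases. The window of *Gli2* has 26.6% of the bases of the 8, and no count of such stretches over the genome is given. The longest, chr1:120930601-120932900 in *Gli2*, spans 2300 bp with 43 CpG and is centred 18.4 kb after the start site. Within it chr1:120932001-120932900 was under peaks in 13 libraries, the 9 *Tdg* null ones, 2 WT hindbrains and both WT carcasses. That was the largest number of libraries for any stretch of the 8 genes, and its central 300 bases are shown for that reason. Whether this sequence also occurs elsewhere in the genome, as a repeat would, was not tested.

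*Gli2*, chr1:120932301-120932600: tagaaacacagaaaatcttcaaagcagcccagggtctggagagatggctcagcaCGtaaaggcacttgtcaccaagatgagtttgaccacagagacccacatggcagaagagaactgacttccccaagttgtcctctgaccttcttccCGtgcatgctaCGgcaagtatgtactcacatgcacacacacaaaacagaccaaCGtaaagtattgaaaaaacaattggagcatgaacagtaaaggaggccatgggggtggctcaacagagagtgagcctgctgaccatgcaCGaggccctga

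*Gli3* (ENSMUSG00000021318.9, chr13:15555068-15821859, plus strand) encodes the Gli factor best known as a repressor in the absence of ligand. *Tdg* null hindbrain had 7.35%, 5.74%, 9.32% and 9.47% of its window covered, with a mean of 7.97% ± 1.77 (SD, n = 4), and WT hindbrain 0%, 0.217%, 0.397% and 0%. *Tdg* null carcass had 17.5% and 22.2%, heart 15.9% and 4.41%, and liver 7.63%, so that hindbrain again lay inside the range. WT carcass, at 2.42% and 2.47%, was above the other WT tissues, where cover was at most 0.434%. WT carcass libraries also cover more of the genome, and relative to it the WT liver of pair b, at 4.78, was above both WT carcasses, at 2.58 and 3.08. That liver value rests on 1 peak of 500 bp, and the carcass values on 12 and 13 peaks. *Gli3* held 33 of 74 stretches under both *Tdg* null carcasses and no other *Tdg* null library, and its window is the longest, with 32.1% of the bases of the 8. These too were not counted over the genome.

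*Gli3* also held 1 of 2 stretches under all 4 *Tdg* null hindbrains and no other *Tdg* null library, the other being the repeat of *Smo*, a pattern that was not counted over the genome. It lies at chr13:15811801-15812800, centred 257 kb after the start site, touches an exon and a CpG island of 201 bp, and holds 18 CpG. The WT carcass of pair b had a peak on it as well. Its central 300 bases are shown because, among *Tdg* null libraries, hindbrain alone had peaks on it and it is not the repeat of *Smo*.

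*Gli3*, chr13:15812151-15812450: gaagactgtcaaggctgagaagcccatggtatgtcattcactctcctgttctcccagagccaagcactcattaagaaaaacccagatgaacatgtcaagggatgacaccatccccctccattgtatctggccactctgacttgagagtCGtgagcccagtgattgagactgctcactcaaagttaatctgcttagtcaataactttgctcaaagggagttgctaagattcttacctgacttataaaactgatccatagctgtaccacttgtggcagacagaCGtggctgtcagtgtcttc

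*Hhip* (ENSMUSG00000064325.3, chr8:82490014-82581905, minus strand) encodes a membrane protein that binds and sequesters hedgehog ligands. *Tdg* null hindbrain had 8.93%, 5.20%, 7.07% and 6.58% covered, with a mean of 6.94% ± 1.54 (SD, n = 4), and WT hindbrain had 0% but for 0.491% in litter Q. *Tdg* null carcass had 11.1% and 17.96%, heart 7.26% and 3.34%, and liver 4.22%. In percent covered, carcass was the highest tissue and hindbrain overlapped heart. Relative to the cover of the genome, described below, carcass overlapped hindbrain and hindbrain lay above heart. WT carcass had 2.55% and 1.96%, and WT heart and liver had 0%. The most shared stretch, chr8:82555101-82555600 in an intron, was under peaks in all 9 *Tdg* null libraries and 1 WT carcass.

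When the tissues were averaged and the 6 litters compared as pairs, leaving out the WT liver of pair b for want of its partner, the same 7 genes were higher in the *Tdg* null than in the WT embryo in 6 of 6 litters. This was so for 54.7% of protein-coding genes. The mean difference over litters was 17.0 percentage points for *Sufu*, 14.3 for *Ptch1*, 12.3 for *Gli2*, 9.33 for *Gli3*, 7.27 for *Hhip*, 3.35 for *Gli1* and 3.32 for *Smo*. *Shh* was higher in 1 litter and lower in 1. The two-sided exact sign-flip permutation test over 6 litters gave p = 0.03125, its smallest value, for each of the 7, and the adjusted p was 0.0571 (Benjamini-Hochberg over all protein-coding genes). Were pair a and pair b of 1 litter, 5 litters would remain and the smallest exact p would be 0.0625. With embryos unpaired, 6 against 6, and that liver kept, the exact permutation test gave an adjusted p of 0.00410 for 6 of them and 0.0197 for *Smo*, whose WT and *Tdg* null embryos overlapped. Of all protein-coding genes, 52.8% were separated without overlap in this comparison, as these 6 were. That share does not cover *Smo*, and the share of all genes with an adjusted p below 0.05 here is not given.

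Since *Tdg* null libraries cover far more of the genome, the percent covered was also divided by the percent of the genome that the library covered. A relative cover of 1 then means that a window holds peaks at the level of the genome. In *Tdg* null hindbrain the mean relative cover was 3.65 for *Sufu*, 3.51 for *Gli2*, 2.55 for *Ptch1*, 2.46 for *Smo*, 2.35 for *Gli3*, 2.06 for *Hhip*, 1.01 for *Gli1* and 0.184 for *Shh*. The median of the 8 was 2.41, against 0.762 over all genes. Over all genes this value was higher in longer windows, with a median of 0.456 under 25 kb and 1.33 between 100 and 300 kb, the class of 4 of the 8 genes. On this scale *Ptch1*, *Gli1*, *Gli3* and *Hhip* were higher in all *Tdg* null than in all WT hindbrains, 4 of 8 genes against 36.2% of all genes, with a two-sided exact permutation p of 0.0286 and an adjusted p of 0.0771. *Hhip* was no longer separated with 10 kb on each side or on peak numbers, nor was *Gli1* with peaks of at least 600 bp. *Ptch1* and *Gli1* had 0% in all 4 WT hindbrains. Scaling leaves 0 at 0, so it could not undo the separation of these genes. *Gli3* and *Hhip* also had 0% in some WT hindbrains.

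*Smo* went the other way. Its relative cover was 132, 28.6, 10.8 and 144 in WT hindbrain and between 2.06 and 2.83 in *Tdg* null hindbrain, a separation downwards that 0.823% of genes showed (exact permutation p = 0.0286, two-sided, and 0.0771 after adjustment). Since the same 5.05% was covered in all 4 WT hindbrains, the spread of the WT values comes from the genome cover of the libraries alone. All of the WT cover lies in the stretch that holds the repeat. *Gli2* had a relative cover of 0, 6.91, 5.39 and 0 in WT hindbrain and between 3.26 and 3.89 in *Tdg* null hindbrain, and the groups overlapped (exact permutation p = 0.8286). *Sufu* overlapped too, with 0, 2.22, 3.77 and 0 in WT and between 3.18 and 4.04 in *Tdg* null hindbrain (exact permutation p = 0.114). With embryos paired by litter *Sufu* was higher in all 4 pairs, where the exact sign-flip permutation test cannot go below p = 0.125, the value obtained.

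**Figure D3:**
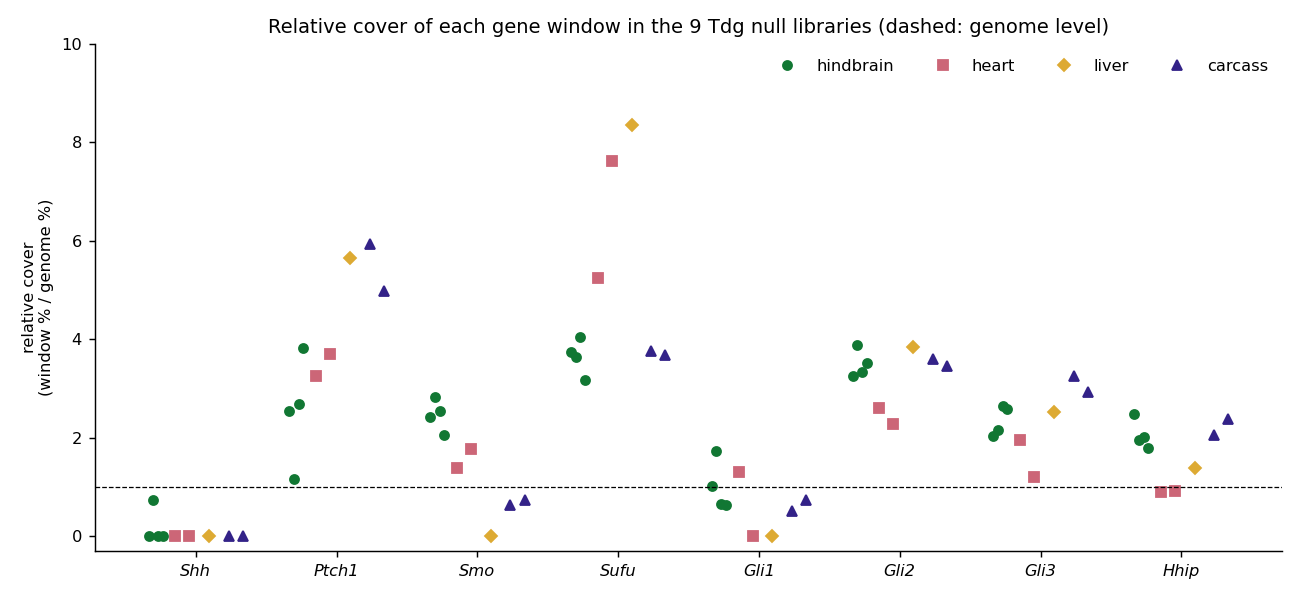
Relative cover, the percent of a window under peaks over the percent of the genome under peaks, for the 8 genes in the 9 *Tdg* null libraries, with a marker for each tissue and a dashed line at 1. *Sufu* and *Ptch1* stand high in liver at 8.35 and 5.65, and *Hhip* stands lowest in heart, at 0.898 and 0.917.

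Tissues of *Tdg* null embryos were compared on relative cover as well. For *Ptch1* the order was liver, 5.65 (1 library), carcass, 5.93 and 4.98, heart, 3.26 and 3.70, and hindbrain, between 1.16 and 3.82. Liver and carcass did not differ beyond the spread of the carcasses, and neither did heart and hindbrain beyond that of the hindbrains. For *Sufu* it was liver, 8.35, heart, 5.25 and 7.63, carcass, 3.77 and 3.69, and hindbrain, between 3.18 and 4.04, where carcass and hindbrain overlapped. *Smo* in hindbrain lay above all 5 other *Tdg* null libraries, 2.06 to 2.83 against 0 to 1.77, as 6.19% of genes did. Without the stretch that holds the repeat the values were 0.804 to 1.32 in hindbrain and 0 to 1.87 in the others, and they overlapped. None of the 8 genes was below all other tissues in hindbrain on this scale (3.21% of genes were), and none was above them in percent covered (0.787% of genes were).

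*Gli3* in carcass, at 3.25 and 2.94, was above every other *Tdg* null library, as 3.07% of genes were, and no gene of the 8 was below them all there (6.97% of genes were). *Gli2*, *Gli3* and *Hhip* in heart, at 2.61 and 2.29, 1.96 and 1.21, and 0.898 and 0.917, were below every other *Tdg* null library, as 4.17% of genes were. None of the 8 was above all others in heart, which 16.6% of genes were. The comparison of hindbrain with the other embryos has 4 against 2 embryos and cannot go below an exact permutation p of 0.133. That value was reached for 5 of the 8 genes on relative cover, and for 35.1% of all genes. The 5 were *Ptch1*, *Smo*, *Gli1*, *Sufu* and *Hhip*, with means of 2.55 against 4.64 for *Ptch1*, 2.46 against 0.963 for *Smo*, 1.01 against 0.487 for *Gli1*, 3.65 against 5.72 for *Sufu* and 2.06 against 1.55 for *Hhip*. Tissue and litter cannot be told apart here, since hindbrain and the other tissues came from different litters. Differences in the cell types a tissue holds and differences in 5fC per cell cannot be told apart either.

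Within the windows, the gene bodies were covered more than the flanks. In *Tdg* null hindbrain 9.85% ± 1.60 of intronic bases, 8.80% ± 0.969 of exonic bases and 2.90% ± 0.119 of flanking bases of the 8 genes were covered (SD, n = 4). Introns and exons overlapped between libraries, and flanks were below both in every library. CpG islands, called on the sequence, had 1.01% ± 0.363 covered (SD, n = 4). No *Tdg* null hindbrain had a base under a peak within 500 bp of the start site of any of the 8 genes, while 17.0% of all protein-coding genes had at least 1 such base in at least 1 of these libraries and 4.13% of such bases were covered. Among the other *Tdg* null libraries 1 gene, *Smo*, had cover there, 7 bases in the heart of pair a alone, against 28.2% of all protein-coding genes. For WT hindbrain the share of all genes with cover near the start was 1.21%.

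**Figure D4:**
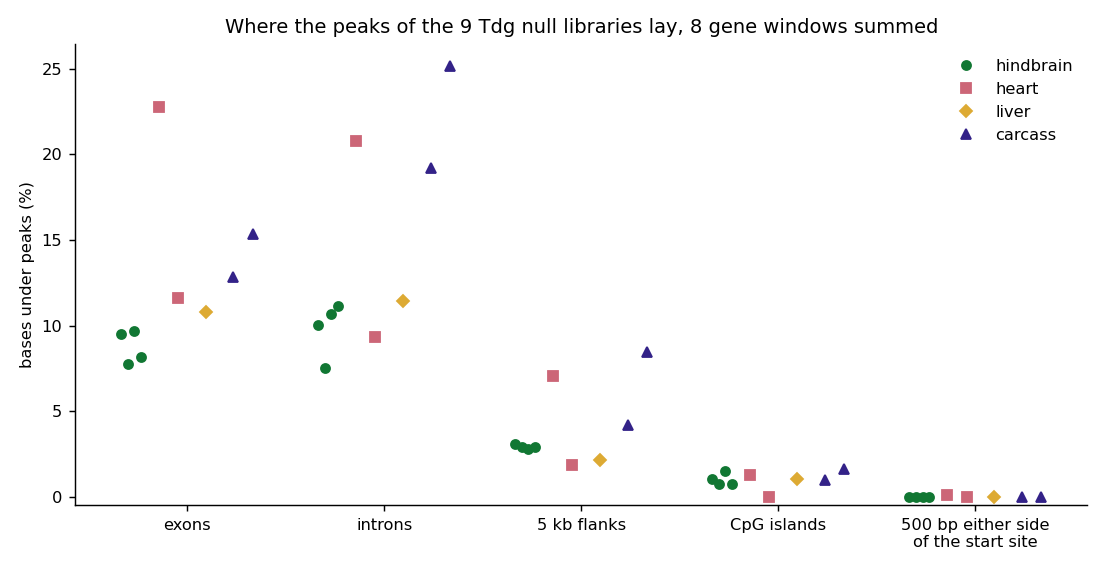
Percent of bases under peaks in exons, introns, the 5 kb flanks, CpG islands and the 500 bp on either side of the start site, summed over the 8 windows, with 1 marker for each of the 9 *Tdg* null libraries. Exons and introns lie well above islands in every library, and *Tdg* null hindbrain has 0% around the start sites.

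Bases under peaks of all 4 *Tdg* null hindbrains were richer in CpG than bases under no *Tdg* null peak in *Gli2* (1.71 against 1.11 CpG per 100 bp), *Gli3* (1.46 against 0.717), *Sufu* (1.72 against 1.20) and *Hhip* (1.46 against 0.730). *Gli1* had 5.00 against 2.43 over 500 bases. *Smo* had 0.810 against 1.45, where the stretch that holds the repeat makes up most of the 2100 bases. *Ptch1* and *Shh* had no such bases. Their bases under no *Tdg* null peak had 1.87 and 2.79 CpG per 100 bp, against 1.72 and 2.77 over the whole window. Bases under any *Tdg* null peak were thus not richer in CpG in these 2 genes. These are descriptions of 1 reference sequence, with no test. The motif GACCACCCA occurred 13 times in the 8 windows on either strand, and 3 of its places, all in *Gli2*, were under a peak in a *Tdg* null library, in 1, 5 and 6 libraries. The place with 5 was also under peaks in 4 WT libraries. *Gli2* holds 6 of the 13 places, and 150888 of the 229488 bases of its window lay under no *Tdg* null peak. The count of places was not tested against that share. In the *Tdg* null hindbrain of litter A, 0.376% of the central 300 bases of all peaks hold it, and none of the sequences of peaks shown above does.

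A wider list of 30 pathway genes was read in the same way, and 29 had a match in the annotation. In hindbrain 22 of the 29 were higher in all *Tdg* null than in all WT libraries and 0 were lower, each of the 22 with an exact permutation p of 0.0286 and an adjusted p of 0.0519, and the same number was higher in 6 of 6 litters. Of all protein-coding genes, 55.0% were separated and 54.7% were higher in all litters. The median difference was 3.50 percentage points over the list and 2.47 over all genes. These shares and medians were not matched for window length, which ran from 12.6 to 271 kb on the list. Over all genes, longer windows were separated more often. The 3 with the largest differences were *Gas1* and *Boc*, co-receptors that help present the ligand, and *Mycn*, a proliferation target. *Gas1* had between 18.7% and 24.9% covered in *Tdg* null and 0% to 6.94% in WT hindbrain, *Boc* 16.7% to 20.5% and 0.716% to 6.56%, and *Mycn* 17.1% to 22.1% and 0% to 11.4%. None of the 3 overlapped between genotypes. At the low end stood *Foxa2* and *Olig2*, targets of the ventral neural tube, with 0% in every hindbrain, and *Foxf1a*, a target in mesenchyme, with 0% to 1.59% in *Tdg* null and 0% in WT hindbrain. Of the other ligands, *Ihh* had 0% to 1.83% and *Dhh* 3.22% to 6.45% in *Tdg* null hindbrain, both with 0% in WT. *Lmbr1*, the gene that holds the limb enhancer of *Shh*, had 1.61% to 1.98% and 0% to 0.189%.

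The protein-coding gene whose percent covered followed each gene most closely over the 9 *Tdg* null libraries was *1810012P15Rik* for *Ptch1* (Pearson r = 0.987), *Gpatch1* for *Smo* (0.988), *Nek2* for *Gli1* (0.974), *Stra6* for *Gli2* (0.995), *Sncaip* for *Gli3* (0.992), *Gpr183* for *Sufu* (0.998) and *Tshr* for *Hhip* (0.989). Each is the highest of 16405 to 16407 correlations over 9 points that share the genome-wide cover of their libraries, and is a description only. *Shh* had too little cover for this. The windows of *Shh*, *Smo*, *Gli1* and *Sufu* also hold parts of other annotated genes, so that cover in those parts is not particular to the gene named. These are the lincRNAs *9530036O11Rik* and *Gm17493* at *Shh*, the pseudogene *Gm13717* at *Smo*, *Arhgap9* at *Gli1* and *Actr1a* at *Sufu*.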

How the data were processed

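5fC pull-down libraries of E11.5 mouse embryos were analysed as peak intervals. The authors trimmed reads with Trim Galore, aligned them to NCBIM37 (mm9) with Bowtie2, and called peaks in each pull-down alone with MACS in SeqMonk (p cutoff 1e-05, fragment size 200 bp). The deposited positions are starts and ends of peaks on a grid of 100 bp, read as 1-based and inclusive, with no counts or heights; input and duplicate handling are not given in the sources used here. Gene windows came from GENCODE vM1. Tests were exact permutations over libraries, embryos or litters, per gene, with Benjamini-Hochberg adjustment over 22367 protein-coding genes, and were tested on simulated data. Litters come from the labels and methods. The deviations of same-litter hindbrains from their group means correlated at -0.0324 to 0.0432 over 17588 genes. CpG islands were called at 200 bp, 50% GC and an observed over expected CpG of 0.6. The genes named are the 8 members, the 3 largest and 3 smallest differences of the wider list, *Tdg* and the most alike gene of each member; *Ihh*, *Dhh* and *Lmbr1* were added for their roles after their values were seen. For sequences, the stretch under peaks of the most libraries was taken per gene, and stretches with a tissue pattern were chosen after seeing the data, as were the comparisons of carcass and heart with other tissues. Members and lists were chosen with earlier results of these data known. Alternatives were peaks of at least 600 bp, merging of peaks closer than 200 bp, other windows and measures, all annotated genes, the litter as a block or not, and each library or litter left out. Python 3.11.15, numpy 2.4.6, pandas 2.3.3, scipy 1.17.1 and matplotlib 3.10.9 were used. Some items are not reported here.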

Additional observations from a re-analysis of the deposited data

Results flagged for a closer look

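Each of 25 groups of 4 hindbrain values of a gene was examined for a library far from the other 3. The threshold is one that normally distributed values pass by chance in 1 of 20 groups. That rate does not hold for values that are often 0. Percent covered and relative cover of the same libraries count as separate groups. The *Tdg* null hindbrain of litter O stood apart for *Shh*, with 1.97% of the window covered (relative cover 0.737) against 0% in litters A, Q and Z. The WT hindbrain of litter Q stood apart for *Hhip*, with 0.491% covered (relative cover 1.05) against 0% in the other 3. That library has the most peaks of the WT hindbrains, 21606. In both cases the other 3 libraries are at 0, so any single peak would stand apart.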

How the results depend on the processing

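The counts of genes separated by genotype stayed within 1.5 times their value under the alternatives run. Counts of genes apart in *Tdg* null hindbrain from other tissues did not, except the count above them on relative cover, which stayed at 1. The counts for carcass and heart were not put through the alternatives. The 7 genes separated in hindbrain and higher in all litters numbered 6 to 7 under other windows, measures, peak filters and gene sets, the same 7 with each hindbrain library or each litter left out, 7 with the litter as a replicate block (paired), and 6 without the replicate block in the comparison of 6 embryos with 6. *Gli1* was the gene lost with peaks of at least 600 bp. The adjusted p went below 0.05 with 10 kb on each side, at 0.0451 in hindbrain and 0.0492 over litters, where 63.3% and 63.5% of all genes were called. The 4 genes higher on relative cover numbered 3 to 5, with 5 in the paired comparison by litter block and 4 to 5 with a library left out; *Hhip* was lost with 10 kb on each side and on peak numbers, and *Gli1* with peaks of at least 600 bp. *Gli2* turned direction on relative cover, to -1.003 with 10 kb on each side and to -0.594 without the WT hindbrain of litter A or of litter Z, from 0.430, and ranged up to 1.71 with a library left out. *Smo* went from -76.5 to 1.11 once its shared stretch was left out, an alternative added after seeing the data, which had to turn since that stretch is all of the WT cover. With peaks of at least 600 bp *Smo* went to -135 on relative cover, and *Sufu* from 2.15 to 3.46. The difference of *Gli1* went from 3.23 percentage points to 5.98 in the gene body alone and to 1.61 with peaks of at least 600 bp. On relative cover *Gli1* went from 1.01 to 1.87 in the gene body. Genes in *Tdg* null hindbrain below the other tissues in percent covered numbered 2 in the gene body alone (*Ptch1* joined *Sufu*) and 1 to 2 with a library left out, those above 0 to 1 (*Smo* without the heart of pair a), and on relative cover those below 0 to 1 (*Ptch1* without the hindbrain of litter Z) and those above 1 to 1. With the *Tdg* null liver of pair b included, which holds 228 peaks and 1 of 200 bp in *Gli3*, the litter count was 7. Peak lists carry no read depth, so WT zeros have no interval.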
